A study of Mus musculus with 6 samples.

Results

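The forkhead (Fox) transcription factor genes were examined in migrating keratinocytes from mouse skin wounds. Members were all probe sets annotated with a single symbol made of Fox, a letter and a digit, leaving out the Foxred genes and antisense symbols, and the probe set with the highest mean stood for a gene that had several. This gave 43 genes on 45 probe sets, of 19938 named genes on the arrays. Diabetic mice had received a diet high in fat and fructose from 8 weeks of age for 16 weeks, and normal mice a control diet over the same time. Wounds were taken 3 days after wounding, and the leading keratinocytes of the regrowing epithelium, located by E-cadherin staining, were cut by laser from skin that had been fixed and dehydrated. Each group had 3 samples, called biological replicates in their titles, and cells from several sections of a sample were combined for 1 whole-transcript array. The sources used here do not give strain or sex. Whether replicates stand for different mice is not said either, and the p-values then cover only the spread among these samples, which may be technical.

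Fox proteins bind DNA through a winged-helix domain whose preferred core is TGTTTAC. In the FOXO branch, insulin and growth factor signals act through AKT kinases, which phosphorylate the protein so that it leaves the nucleus, and low insulin signalling lets it return and switch on genes of cell cycle arrest, stress defence, autophagy and glucose production. In skin, Foxo1 takes part in keratinocyte migration after wounding, Foxn1 is the gene mutated in nude mice and drives hair shaft and epidermal differentiation, and Foxm1 drives mitotic genes in dividing cells.

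To show what such a core looks like near genes that FOXO proteins are known to regulate, RefSeq promoter sequences (assembly GRCm38.p6, 250 bases before to 50 after the gene's start) were searched for TGTTTAC on both strands, where the other strand reads GTAAACA. Of 40 listed promoters of 34 FOXO target genes, 5 held the core (12.5%), against 3.65% of all 32851 promoters. The match describes letters and not binding. The genes were listed as known FOXO targets and the share rests on 5 promoters, so this is no test of enrichment. Capitals mark the core within 31 bases of the gene's own strand.
Bcl2l11 (chr2:128125799-128125829, plus strand): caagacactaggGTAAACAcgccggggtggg
Bbc3 (chr7:16310082-16310112, plus strand): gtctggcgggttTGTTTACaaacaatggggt
Txnip (chr3:96557824-96557854, plus strand): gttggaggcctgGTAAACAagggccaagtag
Trim63 (chr4:134314914-134314944, plus strand): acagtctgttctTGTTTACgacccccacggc
Sesn1 (chr10:41810584-41810614, plus strand): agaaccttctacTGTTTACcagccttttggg
Bcl2l11 and Bbc3 encode death-promoting BH3-only proteins, Txnip the thioredoxin-interacting protein, Trim63 a muscle ubiquitin ligase and Sesn1 a sestrin of the stress response. Among the 28 Fox genes with a listed promoter, the core stood in that of Foxa1 alone, the pioneer factor gene of endoderm.
Foxa1 (chr12:57546234-57546264, minus strand): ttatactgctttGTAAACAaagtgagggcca

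No forkhead gene differed between diabetic and normal keratinocytes past an adjusted p of 0.05 in limma (Benjamini-Hochberg over all genes). The smallest adjusted p among the 43 was 0.780. The same test called 0 of all 19938 genes, a percentage of 0. At an unadjusted p under 0.05 there were 3 Fox genes, Foxn2 lower and Foxn1 and Foxl2 higher in diabetic samples, where 5.56% of all genes passed the same threshold, 2.64% higher and 2.92% lower. In pooled material of this kind, fewer cells of a type and less RNA per cell cannot be told apart. The 3 genes make up 6.98% of the members, near that background, so the count is no result about the family. Signal was higher for 23 and lower for 20 of the 43 genes, and the median difference was 0.034, beside -0.0039 over all genes, of which 48.7% were higher. Leaving out diabetic replicate 1 gave a Fox median of 0.076, and leaving out diabetic replicate 2 gave -0.0032. Differences here are diabetic minus normal log2 signal, and SE is limma's moderated standard error.

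The arrays were dim, and this bears on every member. A background limit was set on each array at the 95th percentile of 1207 olfactory, vomeronasal and trace-amine receptor genes, families of the olfactory system. It lay between 1.98 and 2.14 in log2 signal, at 1.98, 2.01 and 2.12 on diabetic arrays 1 to 3. On normal arrays 1 to 3 it was 2.10, 2.10 and 2.14. Counts above the limit therefore depend on the limit of each array as well as on signal. For a gene at or below that limit the level is known only to be low. Above the limit lay 24, 31 and 23 of the 43 Fox genes on diabetic arrays 1 to 3, and 21, 22 and 19 on normal arrays 1 to 3. Over all genes the share on diabetic arrays was 35.2%, 36.4% and 28.9%, beside 27.9%, 28.6% and 27.5% on the normal ones, and the first 2 diabetic arrays stood higher there too; the part of this in any single difference was not tested. On all 6 arrays 13 members (30.2%) exceeded the limit, beside 17.2% of all genes. That count depends on the limit: it was 21 with the 90th and 2 with the 99th percentile of the receptor genes. Another 22 did so on some arrays and 8 on none, namely Foxa1, Foxc1, Foxd1, Foxj3, Foxk1, Foxp2, Foxp3 and Foxr2.

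**Figure D1:**
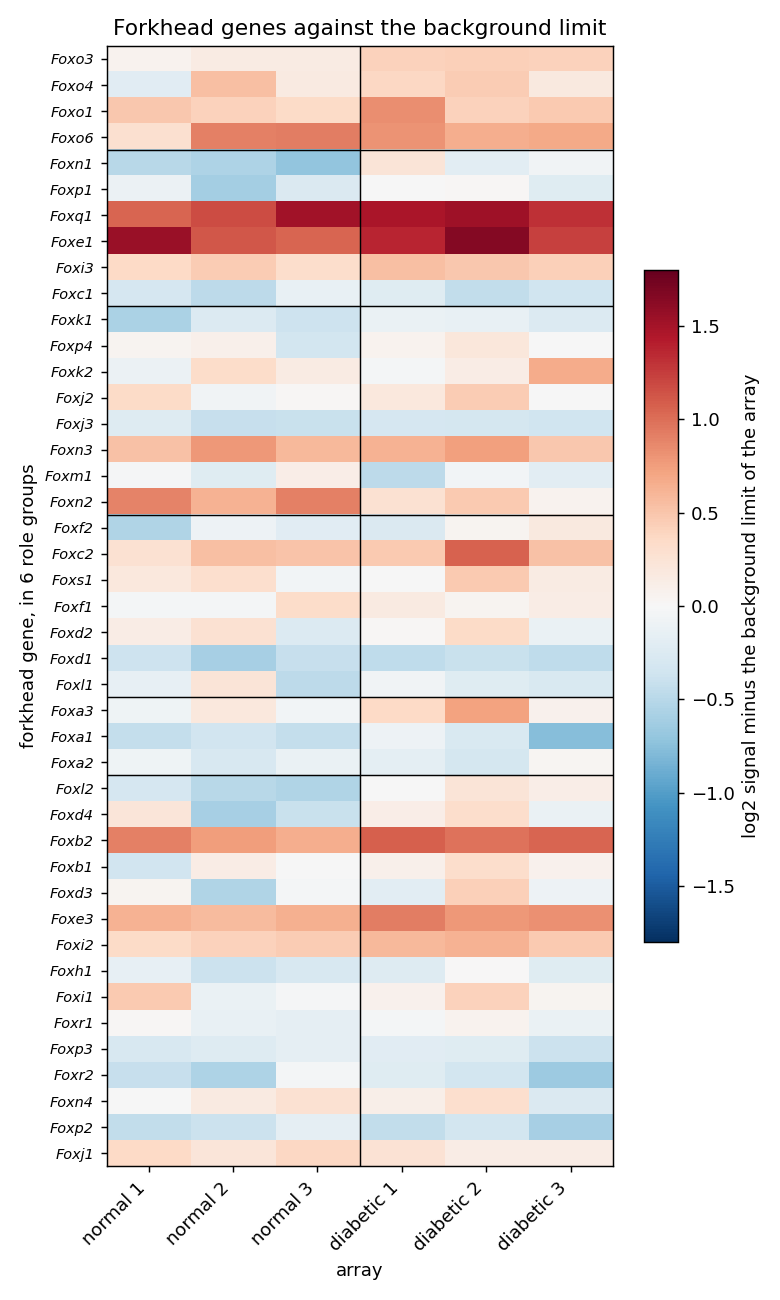
Heat map of log2 signal minus the background limit of the same array for the 43 forkhead genes (rows, in 6 role groups set apart by lines) on 3 normal and 3 diabetic arrays (columns), with red above and blue below the limit. The 13 genes red in all 6 columns include Foxo1, Foxo3, Foxo6, Foxe1, Foxq1 and Foxn2, while Foxn1 is blue in all 3 normal columns and Foxl2 as well.

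The 4 defining keratinocyte markers gave weak signal, and only a minority of the other listed keratinocyte genes were above the limit on every array. E-cadherin (Cdh1) was at 1.88, 1.84 and 1.92 in diabetic against 2.04, 2.06 and 2.01 in normal samples, under the limit throughout and with the diabetic values lower. Krt5 and Krt14, keratins of the basal layer, exceeded it on 2 diabetic and 0 normal arrays each. For Krt14 this turned partly on the limits. Normal replicate 2 at 2.07 lay under its limit of 2.10, and diabetic replicate 2 at 2.05 above its limit of 2.01. Trp63, the regulator of stratified epithelium, exceeded the limit on 1 normal array. Its difference of -0.31 (SE 0.14) was the only one of the 4 past the unadjusted threshold, which 5.56% of all genes passed. It ran from -0.42 to -0.21 with an array left out, and its adjusted p was 0.887 in limma. Krt5 differed by 0.19 (SE 0.15) and Krt14 by 0.23 (SE 0.15). Of 13 basal markers 3 (23.1%) passed the limit on every array and 4 on none, those on every array being Itgb4, Krt15 and Lamb3. Suprabasal markers did so for 3 of 7 (42.9%), Krt10, Klk7 and Sbsn, and wound-edge markers for 1 of 12 (8.33%), beside 17.2% of all genes. Signal in diabetic samples was higher for 8 and lower for 5 basal markers, and for 3 and 4 suprabasal ones. Of the wound-edge markers 3 were higher and 9 lower, with a median of -0.17. Of these 12, 7 exceeded the limit on no array. Skeletal muscle markers, 4 of 10 above the limit on all arrays, had a summed linear signal of 52.2 to 59.8 in diabetic and 49.8 to 51.9 in normal samples, which did not overlap, and their part in the differences below was not tested. The sums overlapped for the other 11 of 12 marker lists. Groups were separate for 10.7% of all single genes, so 1 separate list of 12 is no result about muscle. Fibroblast markers, 3 of 8 above the limit on all arrays, summed to 40.2 to 47.7 in diabetic and 39.8 to 40.8 in normal samples, and none of 7 macrophage markers exceeded the limit on any array.

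Among the 4 FOXO genes, whose products are the insulin-regulated members, 3 were higher and 1 lower in diabetic samples and none passed the test. Foxo1, the FOXO member best known in liver glucose output and in wound keratinocytes, was at 2.82, 2.42 and 2.59 in diabetic against 2.59, 2.52 and 2.48 in normal samples. The groups overlapped, and diabetic replicate 1 was the highest of the 6. Its difference was 0.084 (SE 0.14, n = 3 per group, adjusted p 0.964 in limma), with a 95% confidence interval of -0.22 to 0.39. Without diabetic replicate 1 the difference was -0.020.

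Foxo3, a FOXO gene known for stem cell quiescence and longevity, was at 2.40, 2.44 and 2.54 in diabetic against 2.16, 2.25 and 2.29 in normal samples. All 3 diabetic values lay above all 3 normal values, and each exceeded the limit of its array. The groups were separate in this way for 10.7% of all genes. The difference of 0.23 (SE 0.12), a 1.17-fold higher signal, did not pass (adjusted p 0.893 in limma), and its interval of -0.04 to 0.49 includes no difference. It was between 0.19 and 0.26 with any array left out.

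Foxo4, an X-linked FOXO gene, stood at 2.35, 2.46 and 2.30 in diabetic and 1.90, 2.64 and 2.30 in normal samples. Normal replicate 1 alone was below the limit, and the normal arrays spread more widely than the diabetic ones, with an SD of 0.37 against 0.08. The difference was 0.092 (SE 0.17), and -0.10 without that array. Foxo6, the FOXO gene best known in brain, showed 2.79, 2.67 and 2.81 in diabetic and 2.39, 3.01 and 3.05 in normal samples, again with normal replicate 1 apart. Its difference of -0.061 (SE 0.18) became 0.037 without normal replicate 2 and 0.057 without normal replicate 3. The 95% intervals of all 4 FOXO genes stayed inside 1.5-fold higher or lower in probe signal.

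**Figure D2:**
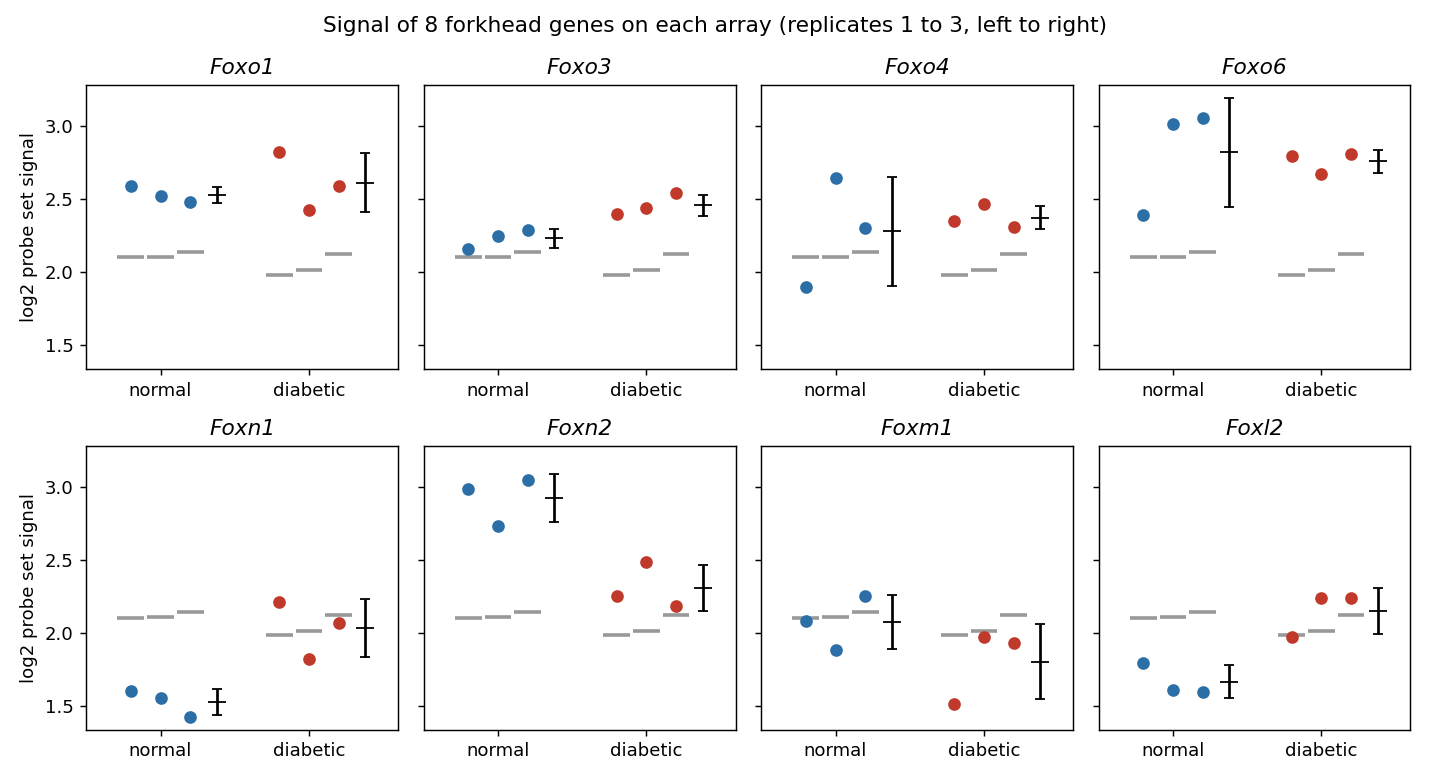
Log2 probe set signal (vertical axis) of the 4 FOXO genes, Foxn1, Foxn2, Foxm1 and Foxl2 on each normal (blue) and diabetic (red) array, replicates 1 to 3 from left to right, with the group mean and SD in black and the array's background limit as a grey bar. Foxn2 is above the limit on all 6 arrays with the normal samples at 2.73 or more and the diabetic at 2.49 or less, while Foxn1 and Foxl2 lie under the limit on all normal arrays.

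The genes around FOXO showed no common direction in signal, but many of them were under the limit, and FOXO activity was not tested. Of 41 listed FOXO target genes 40 were measured, 17 higher and 23 lower in diabetic samples around a median of -0.032. Only 9 of the 40 were above the limit on every array, and 20 were above it on none. Adjusted p called 0 of them in either direction in limma, and at an unadjusted p under 0.05 there were 2 higher and 4 lower, 15.0% against the 5.56% of all genes. Bnip3, a mitophagy receptor gene, was at 2.81, 2.99 and 2.81 in diabetic against 3.25, 3.37 and 3.13 in normal samples. Its groups did not overlap and all values were above the limit, with a difference of -0.38 (SE 0.14). The other 3 lower genes were the autophagy conjugation gene Atg12 (-0.44, SE 0.16), the coactivator gene Ppargc1a (-0.32, SE 0.12) and the death ligand gene Tnfsf10 (-0.21, SE 0.09). Ppargc1a and Tnfsf10 lay under the limit on all arrays, and Atg12 exceeded it on 2 normal arrays. The 2 higher genes, named here after their values were seen, were the sestrin gene Sesn2 (0.26, SE 0.12, above the limit on 2 diabetic arrays) and the sphingosine phosphate receptor gene S1pr1 (0.28, SE 0.13, above it on none).

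The 5 target genes whose promoter core is shown above had differences of -0.093 for Bcl2l11, -0.090 for Bbc3, 0.060 for Txnip, 0.057 for Trim63 and 0.35 (SE 0.17) for Sesn1, with overlapping groups in each. None of the 5 passed the unadjusted threshold. Sesn1 was at 2.07, 1.93 and 1.95 in diabetic and 1.31, 2.10 and 1.48 in normal samples, and its difference was 0.20 without normal replicate 1 and 0.59 without normal replicate 2.

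Of the genes linked to Foxo1 in wound keratinocytes, 6 of 7 listed were measured, and 0 passed at either threshold in limma (3 higher, 3 lower, median -0.013). The growth factor gene Tgfb1 differed by -0.065 (SE 0.15), the chemokine gene Ccl20 by 0.039 (SE 0.13) and the protease inhibitor gene Serpinb2 by -0.10 (SE 0.097). Antioxidant genes of the list were Gpx2 at 0.077, Sod2 at -0.097 and cytoglobin (Cygb) at 0.31 (SE 0.25). Cygb was at 2.74, 3.53 and 3.24 in diabetic against 3.33, 2.95 and 2.31 in normal samples, and the groups overlapped. Its difference ran from 0.032 without normal replicate 3 to 0.54 without normal replicate 1. Cygb and Ccl20 were the members above the limit on all arrays.

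FOXO regulators were genes of the insulin receptor to AKT route, export, acetylation and degradation. Among 32 measured of 34 listed, 16 were higher and 16 lower, and the median was -0.0011. Only 6 of the 32 were above the limit on every array, and 18 were above it on none. Adjusted p called 0 in limma, and 3 passed the unadjusted threshold, 2 higher and 1 lower, 9.38% beside the 5.56% of all genes. Akt2, the AKT kinase gene tied to insulin action, was at 3.39, 3.65 and 3.46 in diabetic against 3.02, 3.11 and 3.31 in normal samples. The groups did not overlap and all values exceeded the limit, with a difference of 0.36 (SE 0.15, adjusted p 0.877 in limma). The growth factor receptor gene Igf1r differed by 0.25 (SE 0.11), under the limit on all arrays, and the acetyltransferase gene Ep300 by -0.31 (SE 0.12), above the limit on 2 normal and 0 diabetic arrays.

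**Figure D3:**
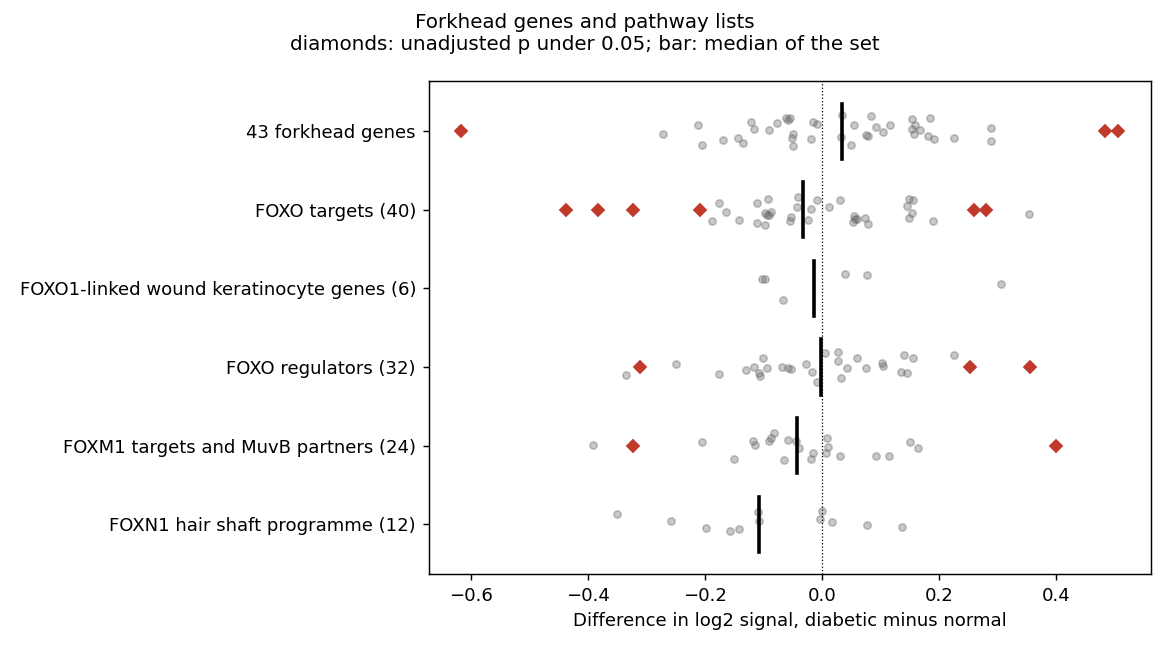
Difference in log2 signal (diabetic minus normal, horizontal axis) of each measured gene in 6 sets, the 43 forkhead genes and 5 pathway lists, with diamonds for an unadjusted p under 0.05 and a bar at the set's median. Medians lie between -0.11 and 0.034, and diamonds fall on both sides of 0 except in the sets that have none.

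Among 6 genes with known roles in epidermis and hair, 5 were higher and 1 lower. Foxn1 was at 2.21, 1.82 and 2.06 in diabetic against 1.60, 1.55 and 1.42 in normal samples. The groups did not overlap. It exceeded the limit on diabetic replicate 1 and on no other array, so the normal level is only bounded. The measured signal was 2.03 ± 0.20 (SD) against 1.53 ± 0.091, a difference of 0.51 (SE 0.13), and this did not pass (adjusted p 0.780 in limma). It lay between 0.42 and 0.61 with any array left out.

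Genes of the hair shaft programme that Foxn1 acts in were 12 measured of 15 listed, 4 higher and 8 lower in diabetic samples around a median of -0.11. In limma 0 of them passed at either threshold. Only 2 of the 12 were above the limit on every array, and 4 were above it on none. Their summed linear signal was 47.0 to 50.7 in diabetic and 48.9 to 57.2 in normal samples, which overlapped. A separate list of sebaceous and hair follicle markers shared no gene with the hair shaft list. With 4 of 11 above the limit on every array and 4 on none, it summed to 49.2 to 55.5 in diabetic and 52.3 to 54.9 in normal samples.

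Foxe1 and Foxq1, both genes of hair follicle formation, were above the limit on all arrays. Foxe1 was at 3.36, 3.66 and 3.35 in diabetic against 3.65, 3.22 and 3.18 in normal ones, a difference of 0.11 (SE 0.17) that ran from 0.0044 without diabetic replicate 2 to 0.25 without normal replicate 1. Foxq1, mutated in satin mice with altered hair shafts, was at 3.45, 3.54 and 3.43 against 3.15, 3.28 and 3.65, a difference of 0.12 (SE 0.16) that ran from 0.012 without normal replicate 1 to 0.26 without normal replicate 3. Both genes overlapped between groups, each through 1 normal array: replicate 1 for Foxe1 lay just under the highest diabetic value, and replicate 3 for Foxq1 above all diabetic values.

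Foxi3, a gene of ectodermal placodes, hair and teeth, varied least of these, with 2.52, 2.50 and 2.56 in diabetic and 2.46, 2.56 and 2.46 in normal samples. Its difference was 0.032 with an interval of -0.23 to 0.30. Foxp1, which helps keep hair follicle stem cells quiescent, was at 1.97, 2.04 and 1.90 against 2.00, 1.49 and 1.87 (difference 0.18, SE 0.14, but 0.033 without normal replicate 2), and only diabetic replicate 2 exceeded the limit. Foxc1, also a gene of hair follicle stem cell quiescence, was under the limit throughout, at 1.76, 1.57 and 1.76 against 1.80, 1.63 and 2.01 (difference -0.12, SE 0.13, but -0.016 without normal replicate 3).

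Because Foxn1 and Foxl2 were the members higher in diabetic samples at the unadjusted threshold, their RefSeq promoters are given in full, with capitals for the 50 bases from the gene's start on.
Foxn1 (GRCm38.p6, chr11:78386559-78386858, minus strand): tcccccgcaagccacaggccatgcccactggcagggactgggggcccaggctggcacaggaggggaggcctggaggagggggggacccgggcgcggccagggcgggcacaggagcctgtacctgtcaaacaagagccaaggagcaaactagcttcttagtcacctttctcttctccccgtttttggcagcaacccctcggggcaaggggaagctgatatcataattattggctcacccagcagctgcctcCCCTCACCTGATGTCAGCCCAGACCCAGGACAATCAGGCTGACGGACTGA
Foxl2 (GRCm38.p6, chr9:98955357-98955656, plus strand): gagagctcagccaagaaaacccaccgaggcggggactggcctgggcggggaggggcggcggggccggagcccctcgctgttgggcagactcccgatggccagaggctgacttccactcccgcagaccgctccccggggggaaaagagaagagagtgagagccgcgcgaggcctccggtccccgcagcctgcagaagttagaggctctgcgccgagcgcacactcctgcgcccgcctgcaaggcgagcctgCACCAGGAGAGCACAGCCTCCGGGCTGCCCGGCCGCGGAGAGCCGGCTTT
Neither window holds TGTTTAC or GTAAACA. The Foxl2 window was 71.3% G and C with 27 CpG sites and the Foxn1 window 62.7% with 8, against a median of 52.7% G and C over all promoters.

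Foxn2, a broadly expressed forkhead gene, had the largest difference in measured signal among the 43. Foxn1 and Foxl2 have only bounded normal levels, and some of their diabetic values are only bounded too. Foxn2 was the single member past the unadjusted threshold that was measured above the limit on every array. It was at 2.25, 2.49 and 2.18 in diabetic against 2.99, 2.73 and 3.05 in normal samples. Every diabetic value lay below every normal value. The diabetic values were not far above background, with replicate 3 at 2.18 against its limit of 2.12. All of them lay under the 99th percentile of the receptor genes on their arrays (2.71, 2.80 and 3.10). Among the normal values, replicates 1 and 3 exceeded that percentile (2.74 and 2.80) and replicate 2 did not (2.89). Means were 2.31 ± 0.16 (SD) and 2.92 ± 0.17, a difference of -0.62 (SE 0.14), 1.53-fold lower with an interval of -0.93 to -0.30, and the adjusted p was 0.780 in limma. With any array left out it stayed between -0.71 and -0.55.

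Its relative Foxn3, a repressor linked to cell cycle checkpoints, did not share that difference in size. Foxn3 was at 2.60, 2.75 and 2.61 in diabetic against 2.63, 2.88 and 2.72 in normal ones, a difference of -0.090 (SE 0.13) with overlapping groups. Its second probe set, dimmer, differed by -0.085. Foxn4, a gene of retina and spinal cord, differed by -0.17 (SE 0.15), and by -0.053 without diabetic replicate 3. Whether Foxn2 differed more than its relatives was not tested.

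Foxm1, the driver of mitotic genes, was at 1.51, 1.97 and 1.93 in diabetic against 2.08, 1.88 and 2.25 in normal samples. It exceeded the limit on normal replicate 3 alone, and the groups overlapped at diabetic replicates 2 and 3. The difference was -0.27 (SE 0.15, adjusted p 0.893 in limma), and -0.12 without diabetic replicate 1. Its targets and partners, 24 measured of 25 listed, were 9 higher and 15 lower with a median of -0.042. Of them 0 passed the adjusted threshold in limma, while Ccnb2, a mitotic cyclin gene, differed by 0.40 (SE 0.16) and Prc1, a spindle midzone gene, by -0.32 (SE 0.12) at the unadjusted one, 8.33% of the list beside 5.56% of all genes. Without diabetic replicate 2 the Ccnb2 difference was 0.23. Ccnb2 was above the limit on diabetic replicate 2 alone and Prc1 on no array, and 14 of the 24 were above it on none.

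The remaining broadly expressed members had small differences. Foxk1 and Foxk2, repressors tied to autophagy and glucose metabolism, differed by 0.16 (SE 0.12) and 0.055 (SE 0.20). Foxk1 was at 1.86, 1.88 and 1.88 in diabetic against 1.52, 1.86 and 1.77 in normal samples, all under the limit, and the groups were separate by less than the second decimal. Its difference was 0.063 without normal replicate 1. Foxk2 reached 2.79 on diabetic replicate 3 against 1.94 and 2.14 on the other diabetic arrays, and without that array its difference was -0.19. It was -0.066 without normal replicate 1. Foxj2, Foxj3 and Foxp4 differed by 0.034, -0.049 and 0.076.

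Foxl2, the gene of ovarian granulosa cells and eyelid development, was at 1.97, 2.24 and 2.24 in diabetic against 1.79, 1.61 and 1.59 in normal samples. The groups did not overlap, and diabetic replicates 2 and 3 alone exceeded the limit. Its difference was 0.48 (SE 0.12, adjusted p 0.780 in limma), between 0.44 and 0.57 with any array left out. The antisense gene Foxl2os, which is no member and whose probe set was above the limit on all arrays, was at 4.17, 4.25 and 4.06 against 3.98, 4.04 and 4.25, a difference of 0.073 with overlapping groups.

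Members known from stroma and vessels gave 2 higher and 5 lower genes with no separate groups. Foxc2, a gene of lymphatic and vessel development, was at 2.45, 3.07 and 2.65 in diabetic against 2.37, 2.64 and 2.65 in normal samples, all above the limit. Diabetic replicate 2 alone stood out, and the difference of 0.17 (SE 0.17) became -0.0031 without it. Foxf1 and Foxf2, genes of mesenchyme under epithelia, differed by -0.050 and 0.19 (0.052 without normal replicate 1), and a second, dimmer Foxf1 probe set by -0.13. Foxd1, Foxd2, Foxl1 and Foxs1 differed by between -0.14 and -0.015.

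None of the 3 endoderm members exceeded the limit on all arrays. Foxa3, a liver and gut gene, was at 2.34, 2.73 and 2.20 in diabetic against 2.02, 2.30 and 2.09 in normal samples, above the limit on 3 diabetic and 1 normal array. Its difference was 0.29 (SE 0.15) with overlapping groups, 0.14 without diabetic replicate 2 and 0.40 without diabetic replicate 3. Foxa1 and Foxa2 differed by -0.055 and -0.076.

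Of the 15 members known mainly from other lineages, 4 were above the limit on all arrays. Foxb2, a gene of the developing nervous system, was at 3.06, 2.99 and 3.16 in diabetic against 3.00, 2.86 and 2.80 in normal ones, a difference of 0.19 (SE 0.14). Foxe3, the lens gene, was at 2.90, 2.79 and 2.95 against 2.73, 2.68 and 2.78, separate groups with a difference of 0.15 (SE 0.13). The ranges of Foxb2 met at a single pair of arrays, diabetic replicate 2 and normal replicate 1.

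Foxi2, an ectoderm gene of the head, stood at 2.56, 2.64 and 2.60 in diabetic against 2.44, 2.52 and 2.59 in normal ones, a difference of 0.079 (SE 0.12) with overlap. Foxj1, the master gene of motile cilia, was at 2.24, 2.15 and 2.26 against 2.45, 2.32 and 2.51. Its groups were separate, with the diabetic arrays lower, at a difference of -0.21 (SE 0.12, adjusted p 0.893 in limma).

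The others of that group exceeded the limit on 4 arrays at most. Foxd4 differed by 0.29 (SE 0.19), Foxb1 by 0.16, Foxd3 by 0.15 and Foxh1 by 0.050, all higher in diabetic samples. The Foxd4 difference ran from 0.12 with normal replicate 2 left out to 0.52 with normal replicate 1 left out. That of Foxb1 was 0.014 in the latter case. On the lower side were Foxp2 (-0.21), Foxr2 (-0.14), Foxr1 (-0.019) and Foxi1 (-0.0075). Foxp3, which marks regulatory T cells, was under the limit throughout, at 1.77, 1.79 and 1.74 in diabetic against 1.82, 1.87 and 1.98 in normal samples, separate groups with a difference of -0.12 (SE 0.11). T cell markers, with 0 of 6 above the limit on every array and 4 on none, summed to 20.4 to 22.3 in diabetic and 21.3 to 22.8 in normal samples.

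**Figure D4:**
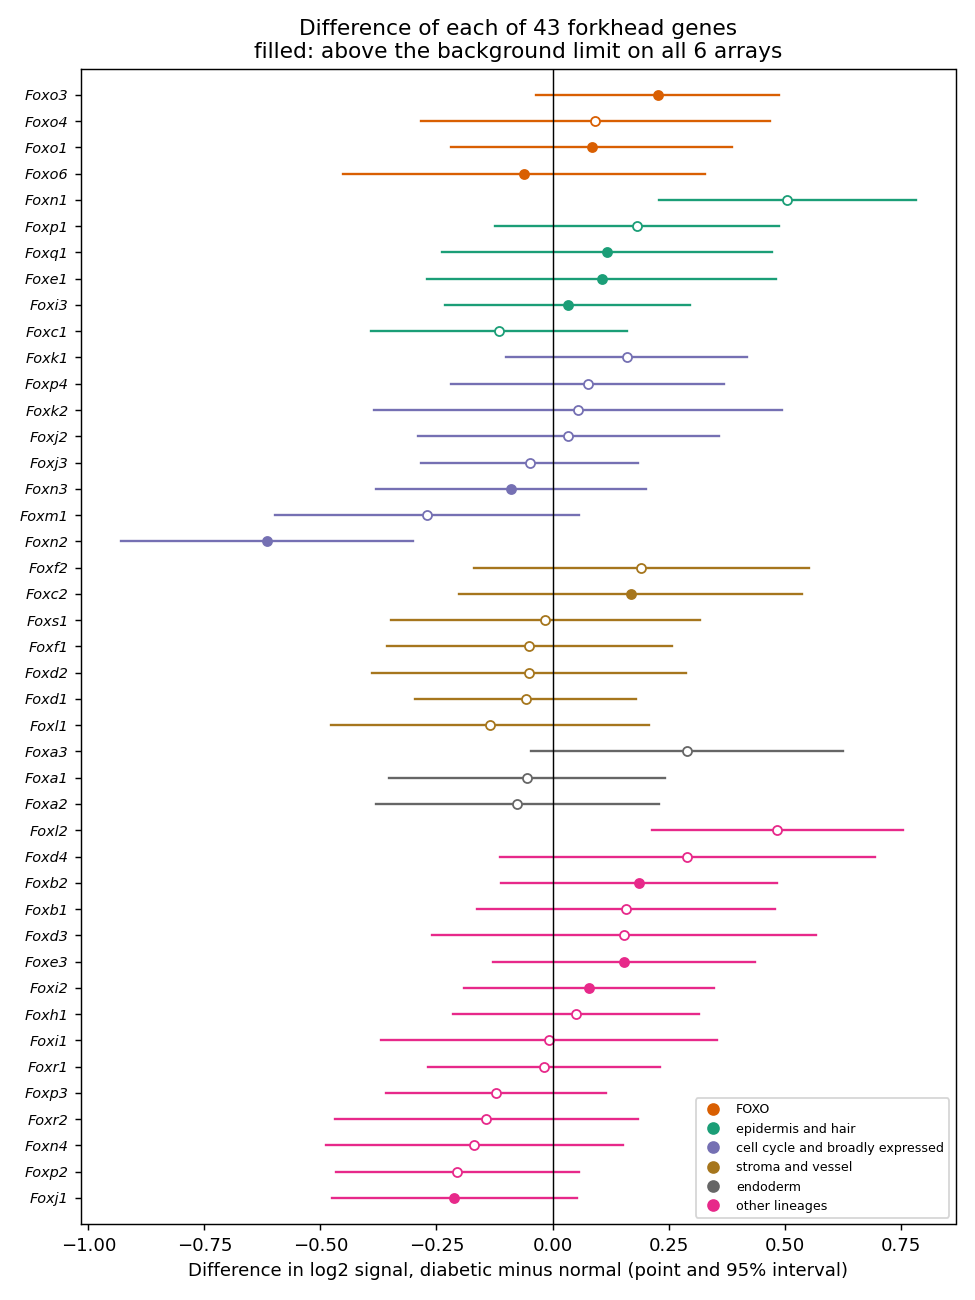
Difference in log2 signal (diabetic minus normal, horizontal axis) of each of the 43 forkhead genes with its 95% confidence interval, coloured by role group, and filled points for the 13 genes above the background limit on all 6 arrays. The intervals of Foxn2 (-0.93 to -0.30), Foxn1 (0.23 to 0.78) and Foxl2 (0.21 to 0.75) do not cross 0, and all 43 lie within 2-fold in either direction.

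Across the family, 8 genes had groups that did not overlap, 5 with the diabetic arrays higher (Foxn1, Foxl2, Foxo3, Foxk1 and Foxe3) and 3 lower (Foxn2, Foxj1 and Foxp3). That is 18.6% of the members, against 10.7% of all genes, 5.02% higher and 5.66% lower. An exact permutation test of 3 against 3 arrays cannot go below a two-sided p of 0.1. The 95% interval stayed inside 2-fold for all 43 genes and inside 1.5-fold for 37, and of the 13 above the limit on all arrays for 13 and 12. Such an interval speaks of probe signal, not of RNA, for dimmer genes above all.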

How the data were processed

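Values were the log2 probe set signals deposited by the authors, 1 column for each of 6 arrays and 35556 probe sets. The log base was inferred from the range of the values. The submitters' processing notes name Partek, without a version; how probes were background-corrected, scaled and summarized was not given in the sources used here. The platform annotation gave 1 symbol for 21789 probe sets, several for 1621, and left 12146 unnamed; 21698 were matched by gene ID to the mouse gene table of assembly GRCm38.p6, and those with several symbols or none were not used. The test was limma 3.58.1 under R 4.3.3 (lmFit, eBayes with an intensity trend, group as the only term), fitted on all 19938 genes without further scaling or a filter, and tested on simulated data. Members, gene lists, named genes and the background limit were chosen with earlier results of these data known. Named genes were the FOXO genes, Foxn1, Foxm1, Foxn2, epidermal Fox genes, members past the unadjusted threshold or above the limit on all arrays, and up to 4 genes per list with the smallest p; values of further members were singled out after they were seen. Array number limits the precision.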

Additional observations from a re-analysis of the deposited data

How the results depend on the processing

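No Fox gene passed the adjusted threshold under any alternative run, which changed the scaling, the variance model, the weighting of arrays, the filter, the probe set rule, the block, the arrays kept and the threshold (adjusted p under 0.1). The count at an unadjusted p under 0.05 was 6 of 43 without variance moderation, where 5.2% of all genes passed. Among genes above the limit on 3 or more arrays it was 1 of 25, beside 5.69% of all genes tested there. Foxn1 and Foxl2 were not tested in that set. With an array left out the Fox count was 3 to 4 of 43, beside 4.57% to 6.98% of all genes. Over all genes 0 to 2 passed the adjusted threshold with an array left out, 2 without diabetic replicate 2 and 1 without diabetic replicate 3. Fox genes above the limit on all arrays numbered 21 with the 90th and 2 with the 99th percentile as the limit. With the replicate number as a block 3 Fox genes passed the unadjusted threshold, beside 5.75% of all genes, and 0 the adjusted threshold. Deviations of same-numbered arrays correlated at -0.018, 0.0078 and 0.014, and those of different-numbered arrays at between -0.029 and 0.020. The labels do not say how the numbers were given. Correlations over all genes cannot show whether same-numbered samples were handled together. Of 662 Fox gene values under an alternative, 630 kept their direction and 32 turned it. Changing the variance model, the filter or the block leaves a gene's difference as it was. So does the probe set rule for genes with a single probe set. Direction could not turn in those cases, so the 630 are no measure of robustness. With array weights the difference was 0.028 for Foxi1 and 0.00137 for Foxs1. With an array left out differences ran from -0.17 to 0.095 for Foxa1, -0.21 to 0.020 for Foxa2, -0.0031 to 0.30 for Foxc2, -0.19 to 0.056 for Foxd2, -0.033 to 0.30 for Foxd3, -0.12 to 0.086 for Foxf1, -0.013 to 0.12 for Foxh1, -0.13 to 0.17 for Foxi1, -0.075 to 0.15 for Foxj2, -0.087 to 0.0016 for Foxj3, -0.19 to 0.23 for Foxk2, -0.30 to 0.043 for Foxl1, -0.020 to 0.18 for Foxo1, -0.10 to 0.27 for Foxo4, -0.28 to 0.057 for Foxo6, -0.048 to 0.15 for Foxp4, -0.052 to 0.031 for Foxr1, -0.26 to 0.020 for Foxr2, -0.13 to 0.12 for Foxs1, -0.19 to 0.055 for Tgfb1, -0.037 to 0.13 for Ccl20 and -0.017 to 0.13 for Trim63. The cause was not tested. Signal near background limits most members.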
